A study of Homo sapiens with 24 samples.

Results

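Threonine tRNAs of the nuclear genome were followed in the human embryonic kidney line HEK293T after knockout of DUS1L, DUS2L or DUS3L, enzymes that make dihydrouridine. The members were taken by name, as the 17 isodecoder entries of the authors' deposited tables named tRNA-Thr, of 286 entries, and the 3 anticodon families Thr-AGT, Thr-CGT and Thr-TGT, of 74. Isodecoders share an anticodon and differ elsewhere in the mature sequence. Untreated cells gave 24 libraries in 8 groups of 3, namely the wild-type groups WT and WT 2, and the clones DUS1L KO 1-9, DUS1L KO 2-4, DUS2L KO 1-8, DUS2L KO 2-1, DUS3L KO 1-5 and DUS3L KO 2-8. Each group of knockout libraries thus comes from 1 clone, so that loss of the enzyme and other differences between a clone and its parent line cannot be told apart within a clone. The tables also list 3 E. coli tRNAs, called spike-ins here since no human cell makes them, although the labels do not say how they were added. Mitochondrial tRNAs are listed as well, so that 261 of the 286 entries and 49 of the 74 families were nuclear.

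The deposited tables held no values per library. They gave the mean of normalised counts over a table's libraries, and the log2 fold change and p-value of clones numbered #1 and #2 against wild type, with no statement of which labelled clone is #1. From these, the level in each group was solved assuming 3 libraries per group, and the standard error (SE) of a log2 fold change was recovered from its p-value. P-values were adjusted (Benjamini-Hochberg) over all rows of a column, and a row was called at an adjusted p under 0.05. Some abundant rows carried no p-value, for a reason not stated. The spread between their libraries is unknown, so their levels and folds may rest on a single library. Whether a group's libraries were separate cultures is not in the labels, so p-values cover the spread between those libraries, which may be technical. The tables hold tRNA alone and cannot check the knockouts or the cell line by their messenger RNAs.

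Threonyl-tRNA synthetase charges these tRNAs, which read the ACN codons. In Thr-AGT the first anticodon base is deaminated to inosine, which lets it read several of those codons, while Thr-CGT reads ACG and Thr-TGT chiefly ACA. Dihydrouridine, made from uridine by the DUS enzymes, is a flexible base of the D loop, where DUS1L and DUS2L act, and of the variable loop, where DUS3L acts. Most human tRNA genes are copies within multigene families, and copies can differ widely in how much they are transcribed.

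RefSeq, in its GRCh38.p14 build, held 20 threonine tRNA genes, and all 17 members matched 1 of them by name. Of the 17, 8 lay on chromosome 6 between 26532917 and 28726091, a region rich in tRNA genes, and all 8 were 74 bases long. The abundant Thr-CGT members lay elsewhere, tRNA-Thr-CGT-2-1 on chromosome 16 (14285893 to 14285964) and tRNA-Thr-CGT-4-1 on chromosome 17 (31550074 to 31550145), both 72 bases long. The Thr-TGT members tRNA-Thr-TGT-3-1, tRNA-Thr-TGT-4-1 and tRNA-Thr-TGT-5-1 lay on chromosome 14 between 20613790 and 20681762. Only tRNA-Thr-TGT-6-1 overlapped a gene of GENCODE release 29, the long non-coding RNA LINC01962, partly in an exon. An entry such as tRNA-Thr-AGT-1-3 can stand for identical copies, since RefSeq also lists copies 1-1 and 1-2 of that isodecoder, and 2-2 of tRNA-Thr-AGT-2-1, which have no row of their own.

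Both gene sequences below belong to members called in a clone, and they show the uridine-bearing loops (as T in DNA) of an inosine-type and a TGT-type threonine tRNA, with the anticodon in capitals. They were read 5′ to 3′ by coordinates from RefSeq sequence of GRCh38.p14, on the minus strand of chr5:181191687-181191758 and the plus strand of chr19:33177057-33177128, which holds bases 1 to 72 of a gene of 74.
tRNA-Thr-TGT-6-1: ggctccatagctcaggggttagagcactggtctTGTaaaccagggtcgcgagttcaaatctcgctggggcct
tRNA-Thr-AGT-1-3: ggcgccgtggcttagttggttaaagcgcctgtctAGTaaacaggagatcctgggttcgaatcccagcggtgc
The D loop, counted from base 14 to the base 13 before the anticodon, held 2 T in 8 bases of tRNA-Thr-TGT-6-1 and 4 T in 9 bases of tRNA-Thr-AGT-1-3. The variable loop held 1 T in each, in 4 and 5 bases.

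Threonine tRNAs made up a small and variable share of nuclear tRNA. By recovered level they were 2.36% of the nuclear sum in DUS1L wild type, 1.67% in clone #1 and 2.98% in clone #2. These shares were 2.35%, 1.89% and 1.75% for DUS2L, and for DUS3L they were 1.08%, 0.376% and 0.497%, with no test for any of them. The fall within the DUS3L table accompanied a rise of the summed normalised counts of all tRNAs from 509958 in wild type to 968285 and 974299. Thr-CGT was the largest family in every group, at 55.4% to 81.4% of the threonine level, followed by Thr-TGT at 17.0% to 41.8% and Thr-AGT at 1.65% to 4.50%.

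The wild-type libraries behind the tables were not all the same. Over the 14 threonine isodecoders with a DUS1L mean of at least 10, the recovered wild-type level in the DUS2L table was 2.22 to 2.33 times that in the DUS1L table, and over 159 nuclear isodecoders with a mean of at least 100 it was 2.22 to 2.35. A constant factor is what one set of libraries scaled in separate tables would give. Against the DUS3L table the same ratio ran from 0.0657 to 26.1. The make-up of the threonine families in wild type differed accordingly. tRNA-Thr-CGT-4-1 and tRNA-Thr-CGT-2-1 held 55.9% and 43.1% of Thr-CGT in the wild type of the DUS1L table, and tRNA-Thr-CGT-3-1 held 0.243%. In the wild type of the DUS3L table tRNA-Thr-CGT-3-1 was the largest member at 39.4%, ahead of tRNA-Thr-CGT-4-1 at 30.1% and tRNA-Thr-CGT-2-1 at 17.6%. tRNA-Thr-TGT-1-1 went likewise from 2.67% to 28.5% of Thr-TGT. Because the DUS1L and DUS2L clones thus appear to share wild-type libraries, and clones #1 and #2 of each table do share theirs, the comparisons below are given side by side and are not independent of each other.

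**Figure D1:**
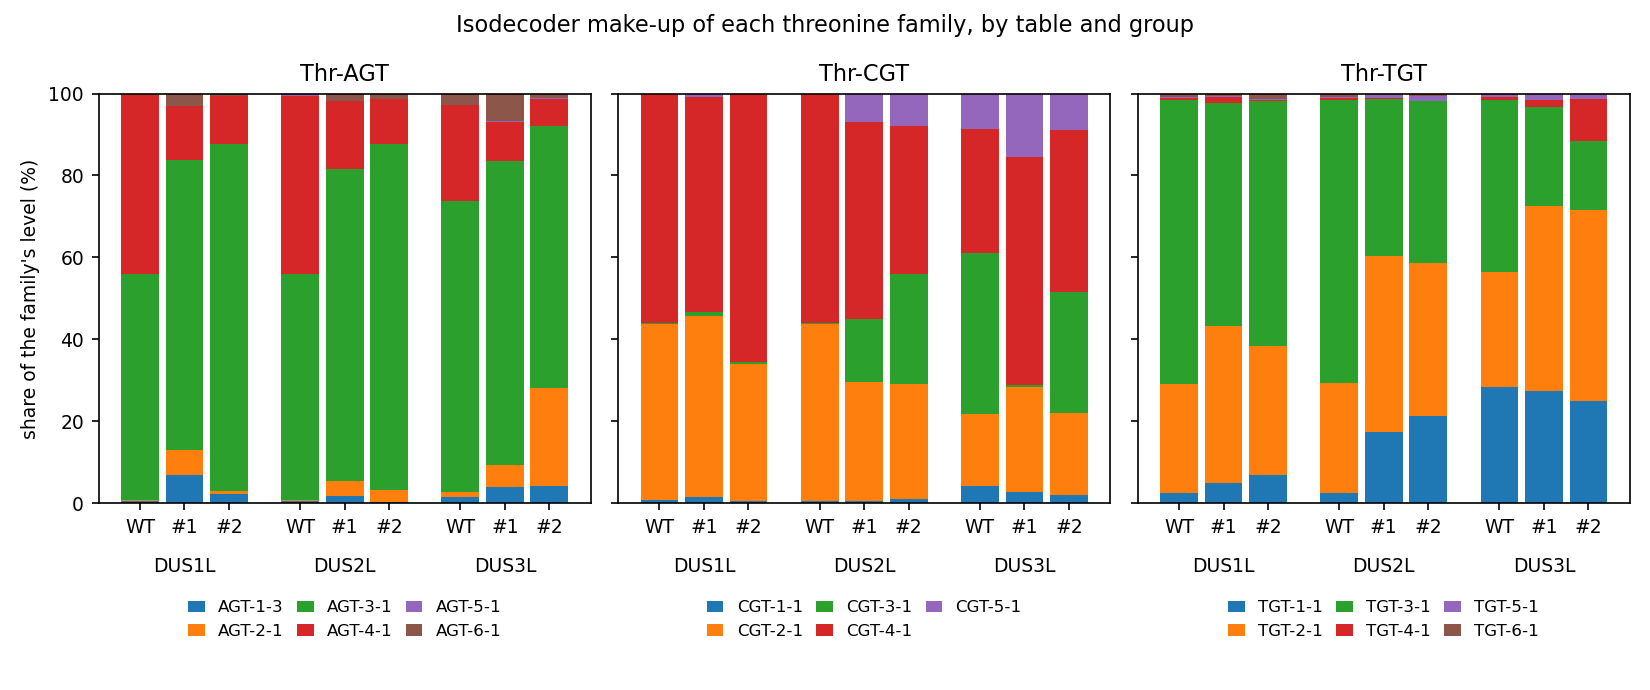
Share of each threonine anticodon family held by its isodecoders (vertical axis, %), from recovered levels in wild type (WT) and clones #1 and #2 of the 3 tables. The wild types of the DUS1L and DUS2L tables look alike, whereas tRNA-Thr-CGT-3-1 fills 39.4% of Thr-CGT in the wild type of the DUS3L table and 0.687% in DUS3L clone #1.

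At the level of whole anticodon families, the threonine tRNAs passed the threshold once in 6 clones, for Thr-AGT in DUS3L clone #1. Thr-AGT stood at 806, 427 and 408 normalised counts in wild type and clones #1 and #2 for DUS1L, at 1811, 517 and 1167 for DUS2L, and at 229, 95.6 and 163 for DUS3L. Each clone was thus lower than its wild type, also after centring on the median nuclear family, which moved the DUS2L clones from -1.81 and -0.63 in the authors' deposited table to -0.71 and -0.19. The log2 fold changes of the authors' deposited table were -0.92 ± 0.68 and -0.98 ± 0.68 (SE) for DUS1L, those 2 values without p-values for DUS2L, and -1.26 ± 0.35 and -0.49 ± 0.35 for DUS3L, with an adjusted p of 0.00559 in clone #1 and 0.598 in clone #2 of the last. The DUS3L clones did not differ from each other in Thr-AGT beyond the error, by 0.77 ± 0.49 (clone #2 minus #1, adjusted p = 0.563).

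Thr-CGT, the most abundant family, stood at 18314, 11805 and 20144 normalised counts for DUS1L, at 41233, 21872 and 30375 for DUS2L, and at 2950, 1924 and 3104 for DUS3L. It was lower than wild type in 4 of the 6 clones, but with each clone centred on its median nuclear family it was above wild type in both DUS2L clones, at 0.18 and 0.0075, and below it in DUS3L clone #2, at -0.21. None of its fold changes in the authors' deposited table passed, with -0.63 ± 0.62 and 0.14 ± 0.62 for DUS1L, -0.91 ± 0.59 and -0.44 ± 0.59 for DUS2L, and -0.62 ± 0.35 and 0.07 ± 0.35 for DUS3L. Thr-TGT stood at 7500, 4140 and 4205 normalised counts for DUS1L, at 16820, 7726 and 12327 for DUS2L, and at 1929, 1452 and 1369 for DUS3L, below wild type in each clone, although that centring put it at -0.025 and 0 on the log2 scale in the DUS2L clones, and the spike-in reference put DUS2L clone #2 at 0.016. In DUS2L clone #2 Thr-TGT was itself the median nuclear family, so the value of 0 follows by construction. For Thr-TGT the authors' deposited table gave -0.86 and -0.83 for DUS1L and -1.12 and -0.45 for DUS2L without p-values, and -0.41 ± 0.32 and -0.49 ± 0.32 for DUS3L, which did not pass.

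Of the threonine families with a p-value, 0 of 2 were called in either DUS1L clone, 0 of 1 in either DUS2L clone, 1 of 3 in DUS3L clone #1 and 0 of 3 in DUS3L clone #2. No further family reached an unadjusted p under 0.05 in the authors' deposited table. Among all families tested, mitochondrial and spike-in rows included, 5.71% were called higher and 0% lower in DUS1L clone #1. In DUS1L clone #2 0% were called in either direction. In DUS2L clone #1 8.45% rose and 26.8% fell, and in its clone #2 16.9% rose and 25.4% fell. In DUS3L clone #1 2.7% rose and 5.41% fell, and in its clone #2 5.41% rose and 0% fell. Among nuclear families alone, DUS1L clone #1 had 4 of 45 higher and 0 lower, and clone #2 had 0 in either direction. The DUS2L clones #1 and #2 had 4 and 10 of 46 higher, and 15 and 11 lower. The DUS3L clones had 2 and 4 of 49 higher, and 4 and 0 lower. No threonine family differed between the clones of a knockout by adjusted or unadjusted p, where 0%, 0% and 1.35% of all families did by adjusted p for DUS1L, DUS2L and DUS3L.

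**Figure D2:**
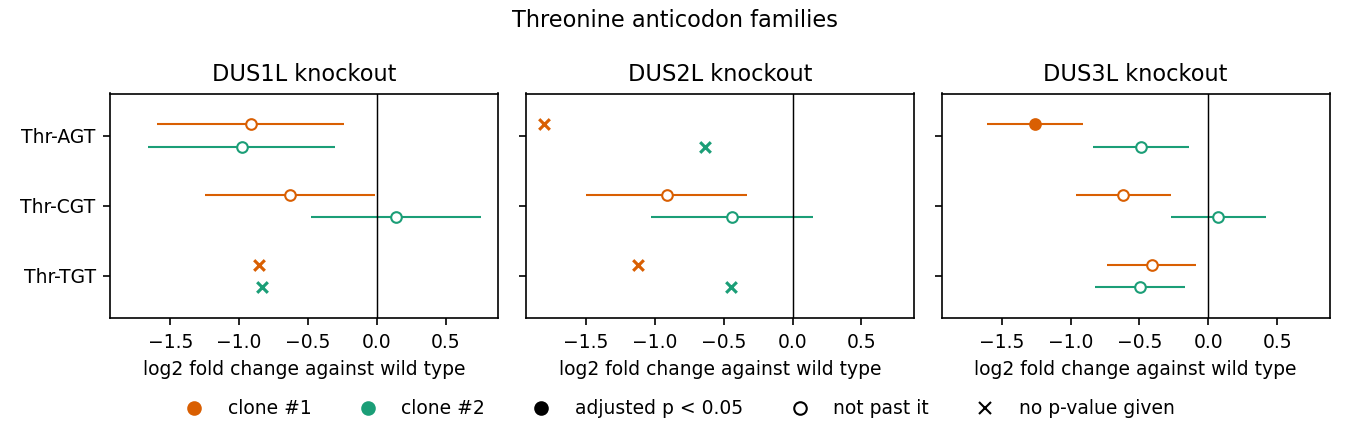
Log2 fold change against wild type (horizontal axis) of the 3 threonine anticodon families in clones #1 and #2 of each knockout, with bars of 1 SE. Filled points were called, open points were not and crosses carry no p-value. Thr-AGT in DUS3L clone #1, at -1.26, is the only filled point.

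Within the families the isodecoders moved in both directions. tRNA-Thr-CGT-3-1 and tRNA-Thr-CGT-5-1, both from chromosome 6 (28648207 to 28648280 and 27618356 to 27618429), rose in both DUS2L clones. tRNA-Thr-CGT-3-1 stood at 101 normalised counts in wild type, 3404 in clone #1 and 8214 in clone #2, folds of 33.8 and 81.7. Its log2 fold changes in the authors' deposited table were 5.08 ± 0.45 and 6.35 ± 0.45 (adjusted p = 2.21e-27 and 8.78e-43). tRNA-Thr-CGT-5-1 went from 39.6 in wild type to 1512 and 2375, with 5.25 ± 0.60 and 5.91 ± 0.60 in the authors' deposited table (adjusted p = 8.79e-17 and 2.99e-21). Together the pair grew from 0.340% of the Thr-CGT level to 22.5% and 34.9%.

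The major Thr-CGT isodecoders were lower at the same time. tRNA-Thr-CGT-2-1 stood at 17718 normalised counts in DUS2L wild type, 6304 in clone #1 and 8495 in clone #2. Its log2 fold changes of -1.49 ± 0.66 and -1.06 ± 0.66 in the authors' deposited table gave an adjusted p of 0.0469 in clone #1 and 0.167 in clone #2. The call in clone #1 ended with the spike-ins as reference (adjusted p = 0.115) and on centring at the median nuclear isodecoder (adjusted p = 0.629). tRNA-Thr-CGT-4-1 stood at 23075, 10500 and 10964, or -1.14 ± 0.60 and -1.07 ± 0.60 in the authors' deposited table, without a call. Centring on the median nuclear isodecoder put tRNA-Thr-CGT-2-1 at -0.47 and -0.51 and tRNA-Thr-CGT-4-1 at -0.11 and -0.52. tRNA-Thr-CGT-1-1 stood at 300, 152 and 327 and passed in neither clone.

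Among Thr-TGT isodecoders of the DUS2L table, tRNA-Thr-TGT-1-1 (chromosome 6, 28474552 to 28474625) rose and tRNA-Thr-TGT-4-1 fell in both clones. tRNA-Thr-TGT-1-1 stood at 451 normalised counts in wild type, 1345 in clone #1 and 2624 in clone #2, and its log2 fold changes in the authors' deposited table were 1.58 ± 0.66 and 2.54 ± 0.66 (adjusted p = 0.0346 and 0.000487). tRNA-Thr-TGT-4-1 went from 84.2 to 7.01 and 10.5, with -3.59 ± 0.79 and -3.01 ± 0.72 in the authors' deposited table (adjusted p = 3.12e-05 and 0.000149). Its neighbour on chromosome 14, tRNA-Thr-TGT-5-1, stood at 58.1, 67.9 and 152 and rose in clone #2 (1.38 ± 0.50 in the authors' deposited table, adjusted p = 0.014). The clones did not differ beyond their error for tRNA-Thr-TGT-5-1 (adjusted p = 0.982).

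tRNA-Thr-TGT-6-1, the chromosome 5 gene shown above, stood at 130.5, 22.95 and 66.4 normalised counts for DUS2L. It fell in clone #1 (-2.51 ± 0.70 in the authors' deposited table, adjusted p = 0.00109), a call that centring ended (adjusted p = 0.0809), and stood at -0.97 ± 0.67 in clone #2. The most abundant member of Thr-TGT, tRNA-Thr-TGT-3-1, stood at 11614, 2957 and 4876 but carried no p-value. It could thus not be called, and its spread between libraries is unknown. Its fold changes of -1.97 and -1.25 in the authors' deposited table became -0.95 and -0.70 after centring. tRNA-Thr-TGT-2-1 stood at 4482, 3326 and 4599 and passed in neither clone. In Thr-AGT, tRNA-Thr-AGT-4-1 (chromosome 6, 27726694 to 27726767) fell from 787 to 85.7 and 129, with -3.20 ± 0.81 and -2.61 ± 0.80 in the authors' deposited table (adjusted p = 0.000299 and 0.00327). tRNA-Thr-AGT-3-1 stood at 1001, 394 and 983 and passed in neither clone, while tRNA-Thr-AGT-2-1 stood at 4.27, 18.5 and 34.6 and rose in clone #2 (3.02 ± 1.10 in the authors' deposited table, adjusted p = 0.0142). The wild-type level of tRNA-Thr-AGT-2-1 is too low for a firm fold, and its call did not hold at an adjusted p under 0.01.

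In all, 3 of the 16 threonine isodecoders with a p-value were higher and 4 lower in DUS2L clone #1, while clone #2 had 5 higher and 2 lower. Of all rows tested, mitochondrial and spike-in rows included, 16.7% rose and 37.3% fell in clone #1, while in clone #2 21.4% rose and 30.8% fell. No test compared the threonine counts with these shares. The median threonine isodecoder stood at -0.43 and 0.04, against -1.02 and -0.55 for all nuclear isodecoders. With each clone centred on the latter medians, 5 threonine isodecoders were higher and 2 lower in clone #1, as in clone #2. The higher ones were then tRNA-Thr-AGT-2-1, tRNA-Thr-CGT-3-1, tRNA-Thr-CGT-5-1, tRNA-Thr-TGT-1-1 and tRNA-Thr-TGT-5-1 in both clones, and the lower ones tRNA-Thr-AGT-4-1 and tRNA-Thr-TGT-4-1. This centring raised every row of a DUS2L clone alike. The share of all isodecoders called after it was not worked out, so the centred threonine counts cannot be read against one. No threonine isodecoder differed between DUS2L clones by adjusted p (1 by unadjusted p, 0.364% of all rows called).

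Of the isodecoders that rose in the DUS2L clones, tRNA-Thr-CGT-3-1, tRNA-Thr-CGT-5-1 and tRNA-Thr-TGT-1-1 also stood apart between the wild types of the tables. tRNA-Thr-CGT-3-1 made up 0.00394% of nuclear tRNA in DUS2L wild type, 0.213% and 0.328% in its clones and 0.246% in the wild type of the DUS3L table. For tRNA-Thr-CGT-5-1 these shares were 0.00155%, 0.0947% and 0.0948%, and 0.0542%. For tRNA-Thr-TGT-1-1 they were 0.0177%, 0.0842% and 0.105%, and 0.116%. The DUS2L clones thus lay nearer to the wild type of the DUS3L table than to their own for all 3. This was not so for tRNA-Thr-TGT-5-1, at 0.00228% in DUS2L wild type, 0.00425% and 0.00605% in the clones and 0.00189% in DUS3L wild type. For the rare tRNA-Thr-AGT-2-1 these shares were 0.000167%, 0.00116% and 0.00138%, and 0.000668%. The DUS2L clones thus also lay nearer to DUS3L wild type for this isodecoder, though from few counts. These shares were set side by side from tables scaled separately, and the part of the wild-type libraries in the DUS2L changes was not tested. In DUS1L wild type, apparently the same libraries as in DUS2L, the shares of tRNA-Thr-CGT-3-1, tRNA-Thr-CGT-5-1 and tRNA-Thr-TGT-1-1 were 0.00395%, 0.00151% and 0.0178%.

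**Figure D3:**
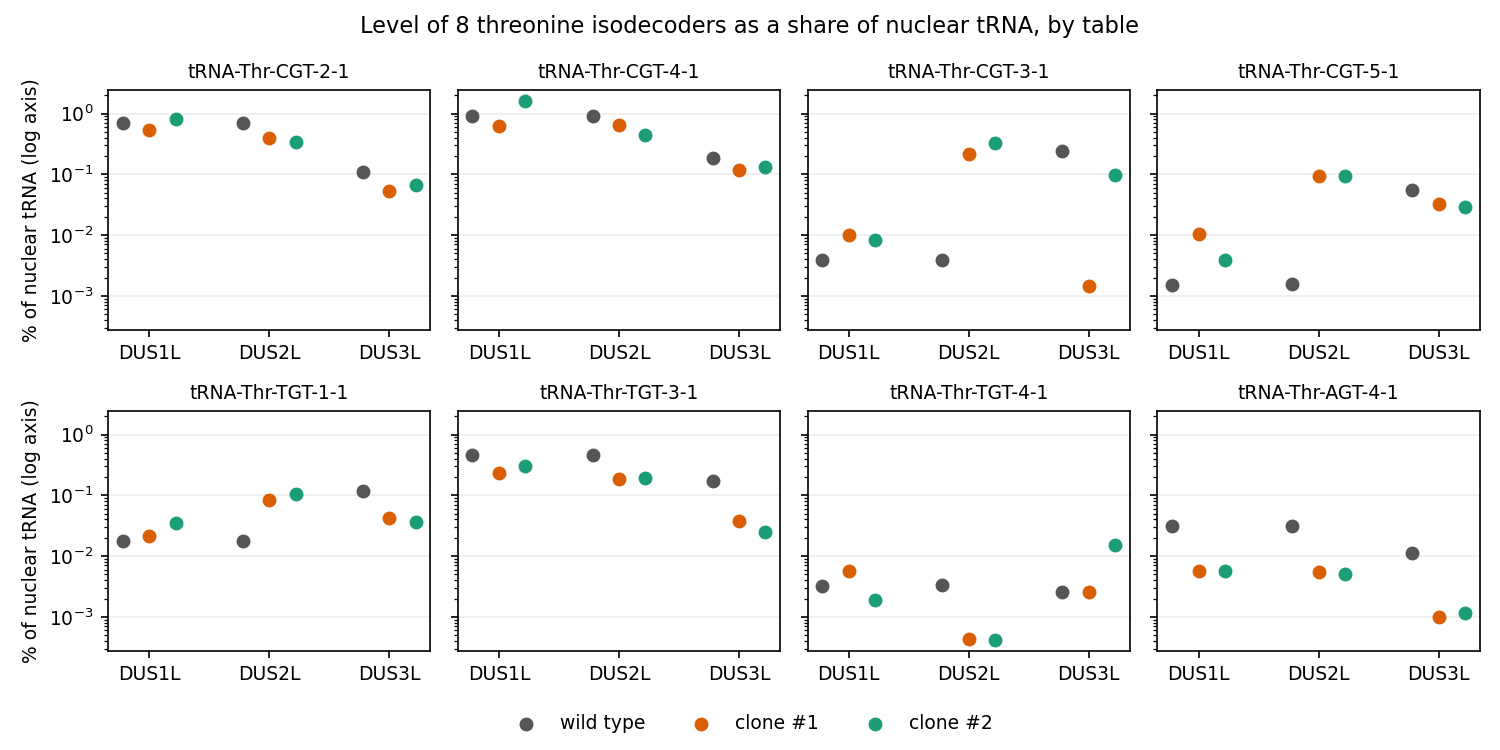
Recovered level of 8 threonine isodecoders as a percentage of all nuclear tRNA (logarithmic vertical axis) in wild type and clones #1 and #2 of each table. For tRNA-Thr-CGT-3-1, tRNA-Thr-CGT-5-1 and tRNA-Thr-TGT-1-1 the DUS2L clones lie near the wild type of the DUS3L table, and for tRNA-Thr-AGT-4-1 all 6 clones lie under their wild type.

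In the DUS3L knockouts the clones parted over tRNA-Thr-CGT-3-1. It stood at 1162 normalised counts in wild type, 13.2 in clone #1 and 914 in clone #2, which is 87.9-fold lower in clone #1. The log2 fold changes in the authors' deposited table were -6.46 ± 0.50 (adjusted p = 1.81e-35) and -0.35 ± 0.46 (adjusted p = 0.766). The difference between the clones was 6.11 ± 0.68 (adjusted p = 2.44e-17). As a share of nuclear tRNA, tRNA-Thr-CGT-3-1 was 0.246% in DUS3L wild type, 0.00143% in clone #1 and 0.0980% in clone #2. In DUS1L wild type it was 0.00395%, so this isodecoder also stood apart between wild types. The part of that in the DUS3L changes was not tested. The clones did not differ beyond their error in the other Thr-CGT isodecoders (adjusted p = 0.898 to 0.974). tRNA-Thr-CGT-5-1 stood at 256, 297 and 273, tRNA-Thr-CGT-2-1 at 518, 490.2 and 623 and tRNA-Thr-CGT-4-1 at 889, 1068 and 1230, without a call. tRNA-Thr-CGT-1-1, at 125, 54.3 and 64.4, was not called in either clone but was in clone #1 with the spike-ins as reference (adjusted p = 0.0296).

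In Thr-AGT only tRNA-Thr-AGT-4-1, and in Thr-TGT only tRNA-Thr-TGT-3-1, were called lower in both DUS3L clones. Other members of these families stood above wild type in both, such as tRNA-Thr-TGT-2-1 and tRNA-Thr-TGT-5-1, without a call. tRNA-Thr-AGT-4-1 went from 53.6 normalised counts to 9.23 and 10.6, with -2.54 ± 0.63 and -2.34 ± 0.65 in the authors' deposited table (adjusted p = 0.002 and 0.00378). tRNA-Thr-TGT-3-1 went from 811 to 354 and 231, with -1.20 ± 0.40 and -1.81 ± 0.40 in the authors' deposited table (adjusted p = 0.0394 and 0.000131). tRNA-Thr-AGT-3-1 went from 163 to 70.8 and 104 and passed narrowly in clone #1 (-1.20 ± 0.42 in the authors' deposited table, adjusted p = 0.0496), a call that centring at the median nuclear isodecoder ended (adjusted p = 0.0575).

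A pair of rare members rose in DUS3L clone #2. tRNA-Thr-TGT-4-1 stood at 12.2, 23.3 and 139.6 normalised counts, with 0.93 ± 0.64 and 3.52 ± 0.63 in the authors' deposited table (adjusted p = 0.428 and 5.32e-07). tRNA-Thr-AGT-2-1 stood at 3.16, 4.95 and 38.8, with 0.65 ± 0.99 and 3.62 ± 0.94 in the authors' deposited table (adjusted p = 0.726 and 0.00144), from a wild-type level too low for a firm fold. The clones differed by 2.58 ± 0.90 for tRNA-Thr-TGT-4-1 (adjusted p = 0.0875) and by 2.97 ± 1.37 for tRNA-Thr-AGT-2-1 (adjusted p = 0.316), so neither difference passed. With the wild-type spread taken out of the error, both passed (adjusted p = 0.000379 and 0.00846). The direction of tRNA-Thr-TGT-4-1 was opposite to that in the DUS2L clones, which were compared with other wild-type libraries. tRNA-Thr-TGT-1-1 (549, 397 and 341) and tRNA-Thr-TGT-2-1 (540, 655 and 641) passed in neither clone.

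Of 17 threonine isodecoders tested in DUS3L, 0 were higher and 4 lower in clone #1 (0 and 6 by unadjusted p), while clone #2 had 2 higher and 2 lower. Of all rows tested, mitochondrial and spike-in rows included, 2.48% rose and 5.32% fell in clone #1. In clone #2 10.6% rose and 1.06% fell, which is 3 rows, with tRNA-Thr-AGT-4-1 and tRNA-Thr-TGT-3-1 among them. Of the threonine isodecoders, 1 (tRNA-Thr-CGT-3-1) differed between the clones, against 2.52% of all rows. The median threonine isodecoder stood at 0.00 and 0.10, beside -0.04 and 0.22 for all nuclear isodecoders.

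In the DUS1L knockouts the called threonine isodecoders were 3 rare ones, all higher in clone #1, while some abundant members carried no p-value. tRNA-Thr-CGT-5-1 stood at 17.0, 101 and 31.7 normalised counts, with 2.57 ± 0.71 and 0.90 ± 0.72 in the authors' deposited table (adjusted p = 0.00313 and 0.511). tRNA-Thr-AGT-1-3, whose chromosome 19 copy is shown above, stood at 4.42, 29.96 and 9.92, with 2.76 ± 0.86 and 1.17 ± 0.87 in the authors' deposited table (adjusted p = 0.00932 and 0.477). These counts may come from any of its copies, and the wild-type level is too low for a firm fold. tRNA-Thr-AGT-2-1, at 1.86, 25.2 and 2.70 with a mean under 10, was also called in clone #1 (adjusted p = 0.00619). Of 14 threonine isodecoders tested, 3 were thus higher and 0 lower in clone #1, and 0 passed in clone #2 in either direction. By unadjusted p there were 4 higher and 1 lower in clone #1 and 0 in clone #2. Of all rows tested, mitochondrial and spike-in rows included, 15.6% rose and 5.09% fell in clone #1, while in clone #2 2.55% rose and 5.82% fell. No threonine isodecoder differed between the DUS1L clones by adjusted p (1 by unadjusted p, and 0% of all rows by adjusted p).

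The abundant members of the DUS1L table that carried a p-value did not pass. tRNA-Thr-CGT-4-1 stood at 10229, 6199 and 13166 normalised counts and tRNA-Thr-CGT-2-1 at 7890, 5223 and 6745. tRNA-Thr-TGT-2-1 stood at 1994, 1583 and 1325. tRNA-Thr-TGT-3-1, at 5186, 2252 and 2506, carried no p-value, and neither did tRNA-Thr-AGT-4-1, at 351, 55.6 and 47.3. Both levels were lower in each clone, and the fold changes of tRNA-Thr-AGT-4-1 in the authors' deposited table were -2.66 and -2.89. The spread between libraries is unknown for both. tRNA-Thr-CGT-3-1, which rose in the DUS2L clones, stood here at 44.5, 99.5 and 68.5 and did not pass. tRNA-Thr-AGT-3-1 (445, 302 and 346), tRNA-Thr-CGT-1-1 (134, 182 and 132), tRNA-Thr-TGT-1-1 (200, 211 and 293), tRNA-Thr-TGT-4-1 (36.8, 55.5 and 15.9), tRNA-Thr-TGT-5-1 (25.7, 17.8 and 10.6) and tRNA-Thr-TGT-6-1 (57.7, 20.3 and 54.1) passed in neither clone. The median threonine isodecoder stood at -0.13 and -0.16, against 0.20 and -0.19 for all nuclear isodecoders.

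**Figure D4:**
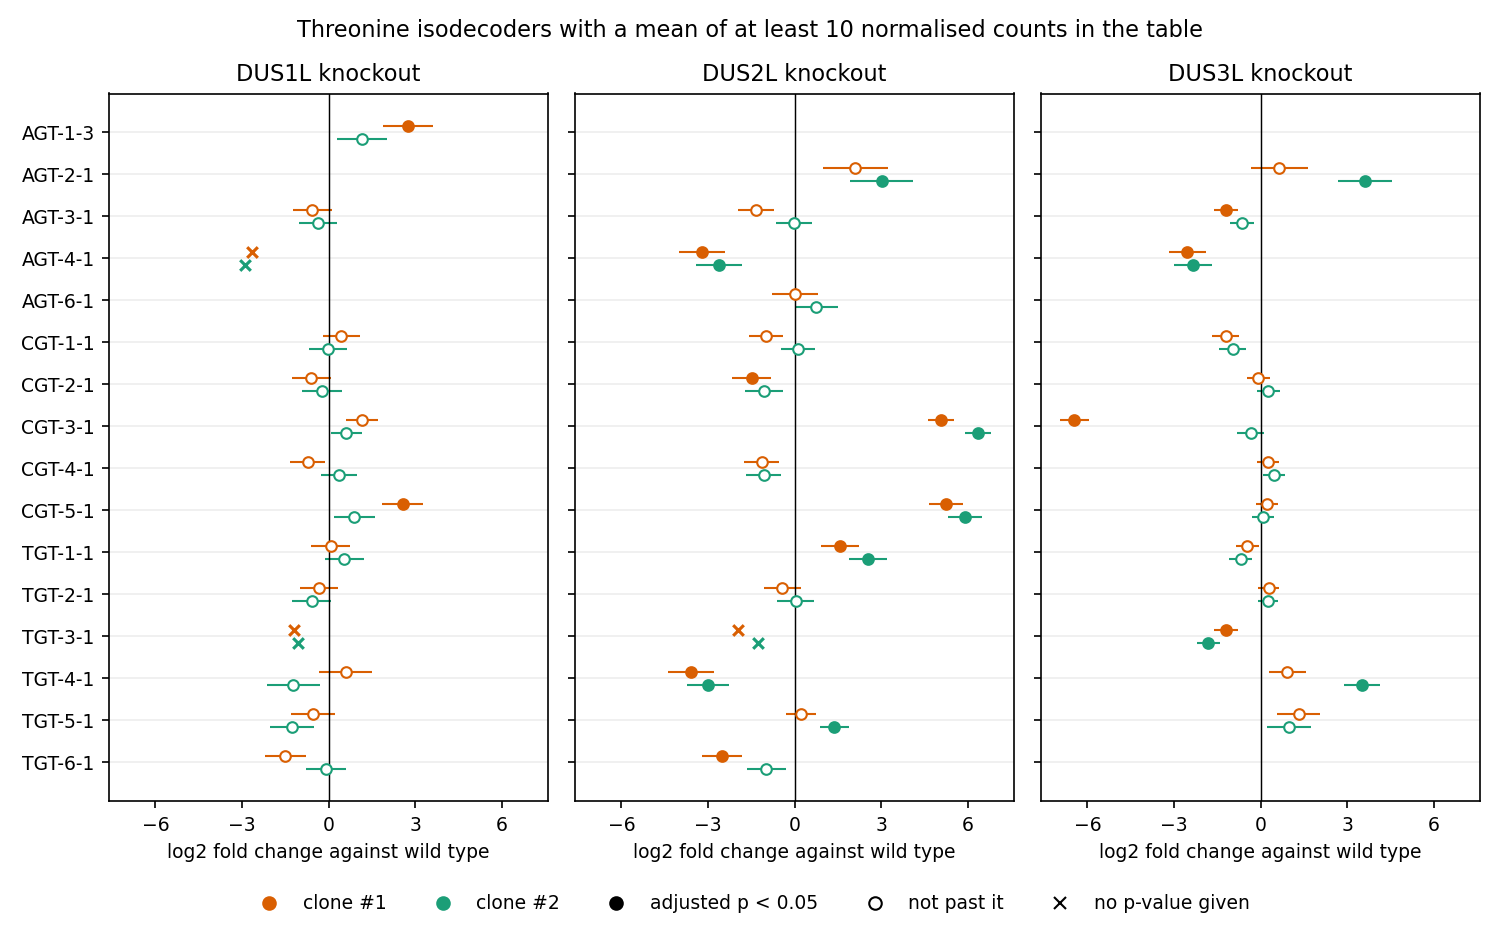
Log2 fold change against wild type (horizontal axis) of threonine isodecoders with a mean of at least 10 in the table, in clones #1 and #2, with bars of 1 SE. Filled points were called, open points were not and crosses carry no p-value. tRNA-Thr-CGT-3-1 is far to the right in both DUS2L clones, at 5.08 and 6.35, and far to the left in DUS3L clone #1, at -6.46.

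Of the 17 members, 14 had a mean of at least 10 for DUS1L, 15 for DUS2L and 13 for DUS3L. tRNA-Thr-AGT-5-1 was listed at 0 in the DUS1L table and had means of 0.231 and 0.253 in the authors' deposited tables for DUS2L and DUS3L. tRNA-Thr-AGT-6-1 had means of 6.71, 10.8 and 4.83 in the authors' deposited tables and was called in no clone. tRNA-Thr-AGT-1-3 had means of 8.1 and 4.8 in the authors' deposited tables for DUS2L and DUS3L, without a call. For DUS3L, tRNA-Thr-TGT-6-1 stood at 7.52, 0.621 and 0.248 and tRNA-Thr-TGT-5-1 at 8.92, 22.3 and 17.6, without a call.

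Other families set beside the threonine tRNAs were 7 chosen ones whose anticodon starts with A, like that of Thr-AGT, and 11 that read codons starting with A, as threonine tRNAs do. The 7 were Ala-AGC, Arg-ACG, Ile-AAT, Leu-AAG, Pro-AGG, Ser-AGA and Val-AAC. They left out Tyr-ATA, whose anticodon also starts with A and which was called higher in both DUS2L clones. Of the 7 chosen families with a starting A, 6 carried a p-value for DUS1L, and 0 of these were called in either clone. All 7 carried one for DUS2L and DUS3L. In DUS2L clone #1, 3 of the 7 were lower (Ala-AGC, Arg-ACG and Pro-AGG), in clone #2 1 was higher (Ile-AAT) and 3 lower (Leu-AAG, Pro-AGG and Ser-AGA), and in DUS3L clone #1 1 was lower (Ile-AAT), with 0 in clone #2. Of the 11 families that read codons starting with A, all carried a p-value for DUS1L and DUS3L and 10 did for DUS2L. Asn-GTT was higher in DUS1L clone #1, with 0 called in clone #2. In DUS2L clone #1 4 of the 10 were lower (Arg-CCT, Arg-TCT, Asn-GTT and Ser-GCT), and in clone #2 3 were lower (Arg-TCT, Asn-GTT and Ser-GCT) and 3 higher (Ile-AAT, Ile-GAT and iMet-CAT). In the DUS3L clones Ile-AAT and Lys-TTT were lower in clone #1, and Asn-GTT was higher in clone #2. The median of the 3 threonine families was -0.86 and -0.83 for DUS1L, -1.12 and -0.45 for DUS2L and -0.62 and -0.49 for DUS3L. For all 49 nuclear families these medians were -0.04 and -0.05, -1.10 and -0.45, and -0.19 and 0.28. In DUS2L clone #2 both medians are the value of Thr-TGT itself.

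By the root mean square difference of log2 fold changes over the 6 clones, a description with no test, the families nearest to Thr-AGT were Met-CAT (0.43), Val-TAC (0.46) and Leu-AAG (0.54). The median over the 46 other families was 1.15. Nearest to Thr-CGT were Ala-AGC (0.28), Gln-CTG (0.40) and Pro-TGG (0.42), beside a median of 0.84. Nearest to Thr-TGT were Phe-GAA (0.40), Trp-CCA (0.40) and Ala-AGC (0.47), beside a median of 0.96. Clones that share wild-type libraries count as separate points in these differences.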

How the data were processed

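Per the labels' protocols, tRNA was isolated from HEK293T total RNA on gels and sequenced after small RNA library preparation. In the submitters' processing notes, DESeq2, featureCounts, STAR, fastp and hg38 are named. How each was used, and how reads with several matches were counted, is not given in the sources used here. Base modifications can halt reverse transcription, and isodecoders that differ by few bases can share reads, so isodecoder values depend on an assignment of reads that is not stated. Per the file headers, the authors' deposited tables hold a mean over libraries of normalised counts (a signal), log2 fold changes and unadjusted p-values. Depth was known only as these means, which summed to 1278868, 2649841 and 817514 normalised counts in the DUS1L, DUS2L and DUS3L isodecoder tables.

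Computations used scipy 1.17.1, pandas 2.3.3 and numpy 2.4.6 under Python 3.11.15, and figures matplotlib 3.10.9. The wild-type level was 3 times the mean over 1 plus both linear folds. The SE was the size of the log2 fold change divided by the two-sided normal quantile for its p. Clones were compared by a normal test of their difference, with squared SEs added, which is cautious because the clones share a wild type. No columns of values per sample were set aside (0). The calculations were tested on simulated tables. Members and lists were chosen with earlier results of these data known. Full values are given for families, for isodecoders with a mean of at least 100 in a table, and for those called with a mean of at least 10. The nearest families are the 3 of smallest root mean square difference. Alternatives were an adjusted p under 0.01, centring on the median nuclear row, the spike-ins as reference, leaving out means under 10, summed isodecoders for families, and a wild-type spread taken out of clone differences.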

Additional observations from a re-analysis of the deposited data

Results flagged for a closer look

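tRNA-Thr-CGT-3-1 differed between the DUS3L clones by 6.11 on the log2 scale (clone #2 minus clone #1), by a test of the difference itself (adjusted p = 2.44e-17). No other threonine tRNA differed between the clones of a knockout at an adjusted p under 0.05 by that test with the wild-type spread kept in the error. tRNA-Thr-CGT-3-1 also stood apart between wild types, at 0.00395% of nuclear tRNA in DUS1L wild type and 0.246% in DUS3L wild type. It was at 0.00143% in DUS3L clone #1.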

How the results depend on the processing

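With each clone centred on its median nuclear isodecoder, the threonine isodecoders called in DUS2L clone #1 were 5 higher and 2 lower, in place of 3 and 4. The share of all isodecoders called after that centring was not worked out. At an adjusted p under 0.01, 3 were higher in DUS2L clone #2 in place of 5, and 2 were lower in DUS3L clone #1 in place of 4. With the wild-type spread taken out of the error, 1 threonine isodecoder differed between the DUS1L clones in place of 0, and 3 between the DUS3L clones in place of 1. The other counts of calls under these alternatives, under the spike-in reference and without means under 10 stayed within 1.5 times, and the shares of the nuclear pool did not move when families were summed. The cause of these moves is the alternatives' own construction for the stricter threshold and the smaller error, and was not tested for centring.

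Some values that were not called changed sign. After centring, tRNA-Thr-TGT-1-1 stood at -0.13 in DUS1L clone #1, tRNA-Thr-CGT-1-1 at 0.17 and tRNA-Thr-TGT-6-1 at 0.097 in DUS1L clone #2, tRNA-Thr-CGT-1-1 at 0.042 and tRNA-Thr-TGT-2-1 at 0.59 in DUS2L clone #1, tRNA-Thr-AGT-3-1 at 0.53 in DUS2L clone #2 and tRNA-Thr-CGT-5-1 at -0.12 in DUS3L clone #2. Thr-CGT stood at 0.18 and 0.0075 in the DUS2L clones and at -0.21 in DUS3L clone #2. With the spike-ins as reference, tRNA-Thr-TGT-1-1 stood at -0.11 in DUS1L clone #1, tRNA-Thr-AGT-3-1 at 0.44 and Thr-CGT at 0.024 in DUS2L clone #2, and tRNA-Thr-CGT-5-1 at -0.072 and Thr-CGT at -0.095 in DUS3L clone #2. Thr-TGT, which carried no p-value for DUS2L, stood at 0.016 in DUS2L clone #2 by that reference. The cause was not tested. No paired analysis was possible because the deposited tables hold no values per library, and for the same reason no library was left out.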
